A study of Mus musculus with 12 samples.

Results

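Interferon-stimulated genes were followed in mouse epidermis that lacked, by label, the vitamin D receptor (Vdr) and Med1, a Mediator subunit that serves as its coactivator, in keratinocytes. The set held 33 genes named by symbol, and all 33 had values in both tables, out of 19392 genes with values at postnatal day 36 (P36) and 17750 at 6 months. All mice were C57BL/6 and carried floxed alleles of both genes (VDR fl/fl, Med1 fl/fl). Controls were K14 Cre-/- and double knockout (DKO) mice were K14 Cre+/-, so that both genotypes shared the floxed alleles and differed in the transgene. The keratin 14 promoter is active in basal keratinocytes, and cells that do not descend from them, such as Langerhans cells, T cells, fibroblasts and muscle, are not expected to delete the alleles. Each genotype was sampled in 3 libraries at P36 and 3 at 6 months, 12 in all, from dorsal epidermis separated from the dermis by heat. Values are FPKM, in which the fragments of a gene are divided by its length and by the library's total.

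FPKM totals per library ran from 446617 to 554382, with 12056 to 12760 genes at 1 FPKM or more; read numbers are unknown. Med1 was lower in the libraries labelled DKO at P36, at 13.8 ± 0.504 FPKM in control and 9.11 ± 1.11 in DKO (SD, n = 3; log2 difference −0.55, limma adjusted p = 0.0083), and measured 14.2 ± 2.21 and 11.6 ± 0.256 FPKM at 6 months (adjusted p = 0.13 by limma). Vdr was not lower at either age, at 68.0 ± 4.16 and 83.5 ± 6.06 FPKM at P36 and 40.5 ± 11.6 and 48.1 ± 5.49 FPKM at 6 months, so the Vdr level goes against the label and DKO below always means the libraries labelled DKO. A gene-level value may include reads from parts of Vdr outside the floxed stretch, so it does not decide whether the gene was deleted. The epidermal keratins Krt5 and Krt14 were abundant in all 12 libraries, at 1068 FPKM or more for Krt5 and 1132 FPKM or more for Krt14. Markers of other cells were present too, and their levels are given beside the results. In such bulk samples, fewer cells of a type and less RNA per cell cannot be told apart.

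Interferons are secreted proteins that bind receptors linked to Janus kinases. Type I and type III interferons activate a complex that includes Stat2 and Irf9 and binds the interferon-stimulated response element in promoters, while type II interferon acts through the gamma-activated site. The genes switched on include cytosolic sensors of foreign RNA and DNA, transcription factors that extend the response, enzymes and binding proteins that act on viral RNA or virus particles, and GTPases that act on membranes around microbes. In skin, keratinocytes and immune cells both make and answer interferons.

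The sequences around the start sites were searched for letters that were not used to choose the members. Promoter windows of 250 bases before to 50 bases after a start site were taken from RefSeq on GRCm38.p6 and matched 25 of the 33 members by symbol (not Dhx58, Mx1, Mx2, Oas2, Parp14, Rtp4, Usp18 and Zbp1). The core of the interferon-stimulated response element, GAAA followed by any 2 bases and GAAA again, was searched on both strands; on the opposite strand it reads TTTC, any 2 bases and TTTC. The letters TTCNNNGAA, the core of the gamma-activated site, read the same on both strands, and matches of either kind may overlap. The 120 bases before the start site are shown for 5 members that differ in these letters and in their expression below, with matches in capitals, on the strand of the gene and 5′ to 3′: Irf1 (chr11:53769894-53770013, plus strand), Isg15 (chr4:156200819-156200938, minus), Ifit1 (chr19:34640769-34640888, plus), Oas1a (chr5:120907526-120907645, minus) and Gbp7 (chr3:142530216-142530335, plus).
Irf1: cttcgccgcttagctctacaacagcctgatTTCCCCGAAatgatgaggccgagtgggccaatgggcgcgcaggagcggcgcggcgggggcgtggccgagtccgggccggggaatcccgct
Isg15: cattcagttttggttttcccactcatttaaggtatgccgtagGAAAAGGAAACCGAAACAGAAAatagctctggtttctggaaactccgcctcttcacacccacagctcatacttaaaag
Ifit1: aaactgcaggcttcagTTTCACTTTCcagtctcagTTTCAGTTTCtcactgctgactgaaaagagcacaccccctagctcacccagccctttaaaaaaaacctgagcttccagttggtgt
Oas1a: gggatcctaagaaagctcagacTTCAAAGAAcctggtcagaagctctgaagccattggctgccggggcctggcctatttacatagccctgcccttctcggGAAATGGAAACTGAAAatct
Gbp7: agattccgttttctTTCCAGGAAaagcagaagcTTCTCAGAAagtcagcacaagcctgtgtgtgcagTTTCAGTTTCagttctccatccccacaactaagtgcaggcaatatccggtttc
The Irf1 stretch held a single TTCNNNGAA match and no response element core, whereas the stretches of Isg15 and Ifit1 held that core and no TTCNNNGAA. Those of Oas1a and Gbp7 held both. Over whole windows, the response element core occurred in 15 of the 25 members (Bst2, Ddx58, Gbp2, Gbp3, Gbp7, Ifih1, Ifit1, Ifit3, Igtp, Irgm1, Isg15, Oas1a, Oas3, Rsad2 and Stat2) and in 3.99% of the 27025 genes in the table, or 3.44% of all windows of this length. TTCNNNGAA occurred in 7 of the 25 (Bst2, Gbp7, Ifit2, Igtp, Irf1, Isg20 and Oas1a) and in 9.55% of genes, or 8.30% of windows. A match of letters is a description, not a site.

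At P36 the members stood higher in the libraries labelled DKO as a group, and 1 library carried much of the height. The mean FPKM was higher in DKO for 33 of 33 members, against 65.1% of the 12660 genes tested. The ratio of the mean FPKM in DKO to that in control had a median of 2.11 and ran from 1.24 for Isg20 to 5.67 for Oas2. DKO replicate 2 was the highest of the 6 libraries for 33 of 33 members, as it was for 19.5% of genes tested. It exceeded the next highest library by at least 1.5 times for 29 of 33 members, against 0.869% of genes tested, and by a median of 1.96 times, from 1.06 times for Irf1 to 4.09 times for Isg15. No other P36 library exceeded the next highest by that ratio for any member. The cause of the height of that library was not tested.

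**Figure D1:**
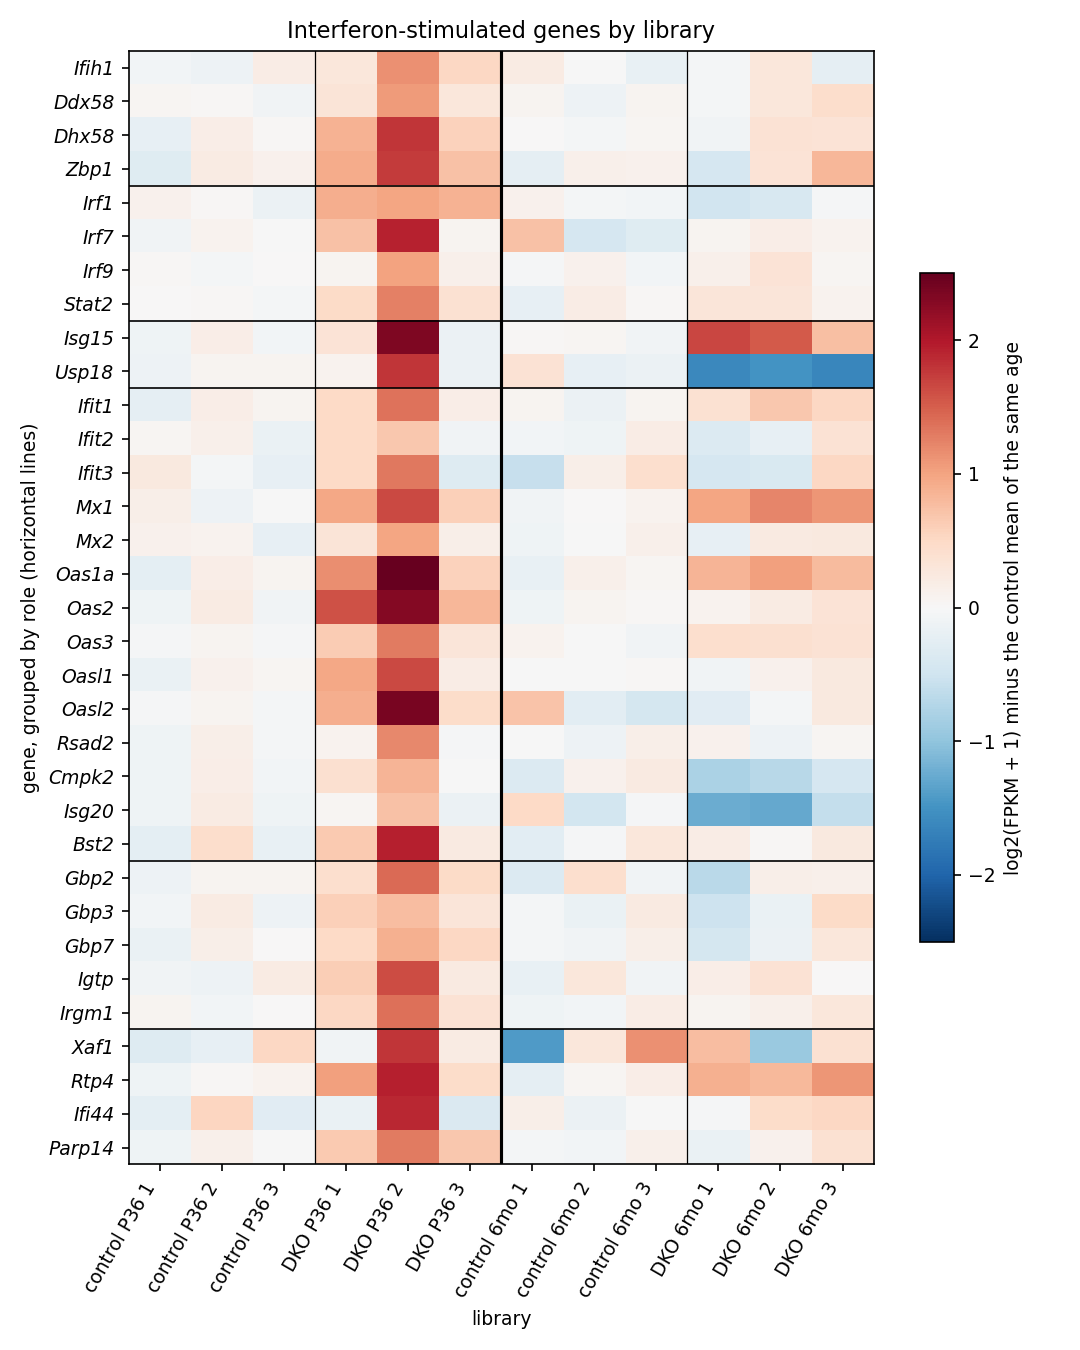
Level of each of the 33 members in each of the 12 libraries, as log2(FPKM + 1) relative to the mean of the controls of the same age. Rows are members grouped by role, columns are libraries. At P36 the column of DKO replicate 2 is the highest for 33 of 33 members.

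Without that library, the members differed in how far they stood from control. With DKO replicates 1 and 3 alone, the ratio of mean FPKM to control had a median of 1.43. It was 1.5 or more for 14 members (Irf1, Dhx58, Mx1, Oas1a, Oas2, Oas3, Oasl1, Oasl2, Zbp1, Gbp2, Gbp3, Gbp7, Rtp4 and Parp14) and between 0.9 and 1.1 for 6 (Isg15, Isg20, Irf9, Rsad2, Usp18 and Xaf1). For 21 of 33 members DKO replicates 1 and 3 both lay above all 3 controls, against 35.5% of genes tested. The same 21 members had no overlap between the groups with all 6 libraries, against 30% of genes tested with DKO higher, and no member had DKO lower without overlap (9.63% of genes). The groups overlapped for 12 members: Isg15, Isg20, Irf7, Ifit1, Ifit2, Ifit3, Rsad2, Usp18, Bst2, Xaf1, Ifi44 and Cmpk2.

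**Figure D2:**
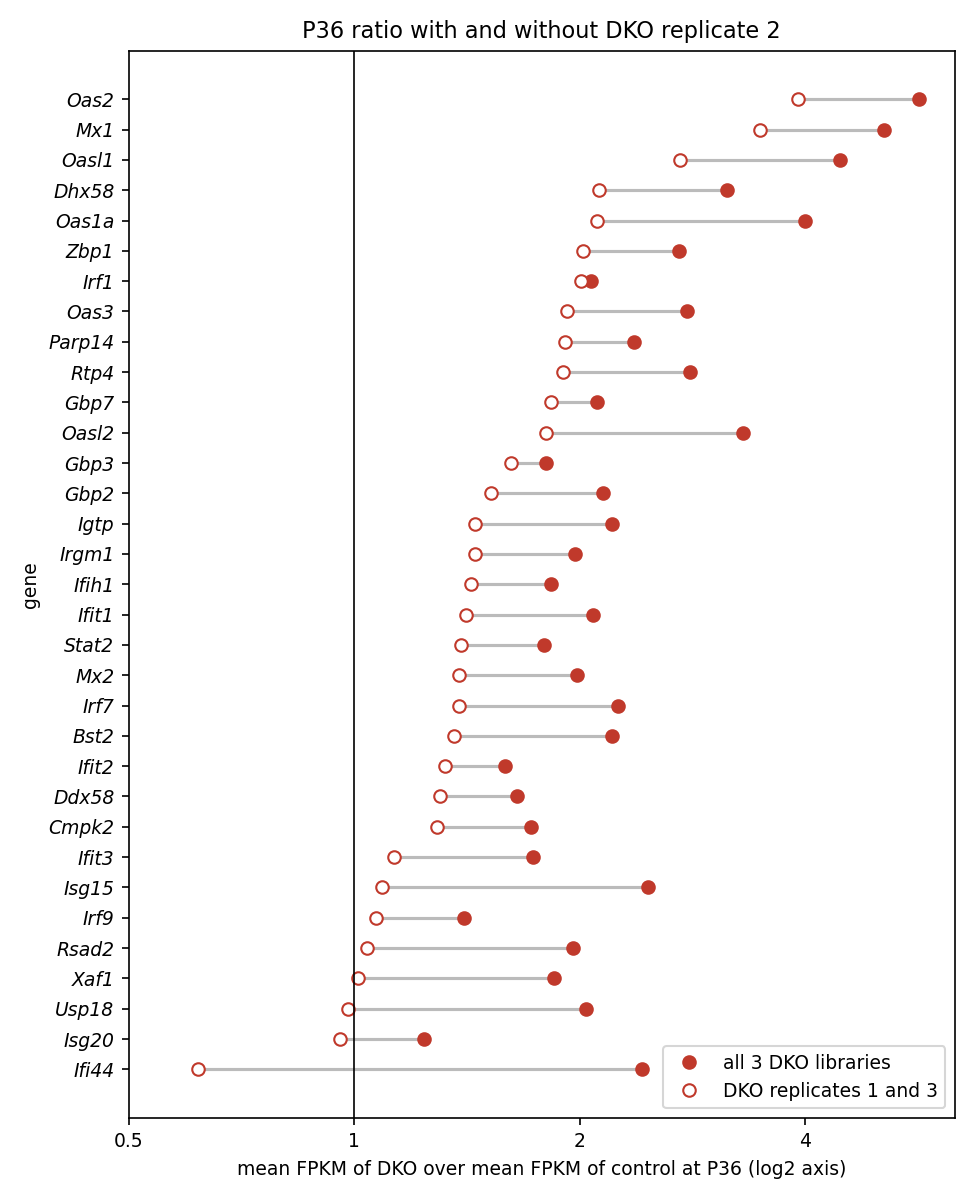
Ratio of mean FPKM in the P36 libraries labelled DKO to that in control (x axis, log scale) for each member (y axis), with all 3 DKO libraries (filled) and with replicates 1 and 3 only (open). The median falls from 2.11 to 1.43 when replicate 2 is left out, and Oas2 has the highest ratio of all 3 libraries.

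In the limma fit of log2(FPKM + 1) at P36, 29 members passed the filter of at least 1 FPKM in at least 3 libraries (not Mx2, Oasl1, Rsad2 and Ifi44). Mx1 and Oas3 passed only through the DKO libraries, so counts and medians over the 29 are a description. Among the 29, 9 were called higher at an adjusted p below 0.05 and 0 lower, where 18% of all genes tested were called higher and 5.32% lower. A further 12 of the 29 had an unadjusted p below 0.05 without being called, 21 in all. The median log2 difference of the 29 was 0.75, against 0.09 over all genes tested. With no filter, which lets in all 33, 6 were called higher, where 13.8% of all genes were; the log2 differences of the 4 members under the filter were 0.48 for Mx2, 0.93 for Oasl1, 0.42 for Rsad2 and 0.45 for Ifi44, none called. Without DKO replicate 2, 26 members passed the filter and 9 were called, where 10.5% of all genes were called higher, with a member median of 0.43. Of these, 6 were called in both fits (Dhx58, Irf1, Oas2, Parp14, Rtp4 and Zbp1). Without control replicate 1, 4 of 29 were called (Irf1, Mx1, Oas2 and Parp14), close to the share over all genes (1681 of 12553). Without DKO replicate 3, 13 of 27 were called (1315 of 12321 genes called higher), with Igtp, Irf7, Irgm1, Oas1a, Oasl2 and Stat2 added. Without DKO replicate 1, 7 of 26 were called (1855 of 12298 genes called higher), with Gbp2 and Ifih1 added. Mx1 fell under the filter when any DKO library was left out. With median-ratio scaling 7 were called higher, where 12.7% of all genes were, and the calls of Rtp4 (adjusted p = 0.0581) and Gbp3 (0.0697) were lost by limma. With that scaling, and with totals that leave out keratin and cornified envelope genes, all 29 members stayed above 0.

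Among the transcription factors at P36, Irf1, which switches on genes of the interferon-gamma response, had the smallest adjusted p of all members. It measured 5.43, 5.14 and 4.45 FPKM in control and 10.3, 10.9 and 9.88 FPKM in DKO. All 3 DKO libraries were close to each other and about equally far above the controls, and the groups did not overlap. The log2 difference was 0.92 (SE 0.11, limma adjusted p = 0.00116) and 0.89 without DKO replicate 2 (adjusted p = 0.00737 by limma). Irf7, the factor that amplifies type I interferon production, gave 14.0, 16.1 and 15.0 FPKM in control and 25.5, 59.9 and 15.9 FPKM in DKO. Its replicate 3 labelled DKO lay among the controls, and it was not called (0.91, SE 0.39, adjusted p = 0.143). Stat2 and Irf9 belong to the complex that binds the interferon-stimulated response element. Stat2 measured 7.61, 7.71 and 7.23 FPKM in control and 10.9, 19.5 and 10.03 FPKM in DKO (0.70, SE 0.22, adjusted p = 0.0511), and was called without replicate 2 (0.43, adjusted p = 0.0480). Irf9 measured 21.1, 19.8 and 20.8 FPKM in control and 21.6, 42.1 and 22.6 FPKM in DKO, where replicates 1 and 3 exceeded the highest control by little.

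Among the sensors, Zbp1, which binds Z-form nucleic acid and can start necroptosis, measured 2.21, 3.56 and 3.28 FPKM in control and 6.58, 12.3 and 5.63 FPKM in DKO. All DKO libraries lay above the controls, with replicate 2 highest (log2 difference 1.14, SE 0.26, limma adjusted p = 0.0171). Without control replicate 1 its adjusted p was 0.0593. Dhx58, a helicase that regulates the RNA sensors, measured 1.06, 1.65 and 1.43 FPKM in control and 3.35, 7.13 and 2.51 FPKM in DKO (1.08, SE 0.29, adjusted p = 0.0307). The groups did not overlap, but the call was lost without any 1 control library (adjusted p = 0.0963, 0.0563 and 0.0615 without replicates 1, 2 and 3) and without DKO replicate 1 (0.0507). Ifih1 and Ddx58, the sensors of double-stranded RNA and of RNA ends, lay above the controls in each DKO library without being called (adjusted p = 0.0695 and 0.0895).

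The effectors that act on foreign RNA and virus particles made up 14 members, of which 2 of 11 tested were called higher at P36, a share close to that over all genes (18%). Oas2, which makes the second messenger that activates RNase L, measured 0.76, 1.17 and 0.78 FPKM in control and 4.68, 8.30 and 2.39 FPKM in DKO. Its lowest DKO library was above its highest control, and the log2 difference was 1.57 (SE 0.32, limma adjusted p = 0.0107), or 1.21 without DKO replicate 2 (adjusted p = 0.0209 by limma). Only 1 of its controls reached 1 FPKM, and with no filter its adjusted p was 0.0255. Mx1, a dynamin-like GTPase that blocks influenza virus and is defective in most laboratory mouse strains, measured 0.55, 0.29 and 0.40 FPKM in control and 1.74, 3.44 and 1.14 FPKM in DKO (1.07, SE 0.25, adjusted p = 0.0187; 0.0595 without control replicate 2). Every control was below 1 FPKM and every DKO library above it, so that Mx1 was tested only because DKO was high; with no filter its adjusted p was 0.0324.

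The other 4 oligoadenylate synthetase genes of the set gave a like order of libraries at P36. Oas1a measured 2.60, 3.83 and 3.50 FPKM in control and 8.59, 25.7 and 5.39 FPKM in DKO, a log2 difference of 1.46 that was not called (SE 0.45, limma adjusted p = 0.0521) and was 0.87 without replicate 2 (adjusted p = 0.0406). Oas3 measured 0.69, 0.81 and 0.69 FPKM in control and 1.67, 3.27 and 1.14 FPKM in DKO (0.75, SE 0.24, adjusted p = 0.0578). Oasl2 measured 3.54, 3.88 and 3.46 FPKM in control and 7.67, 22.9 and 5.39 FPKM in DKO, and Oasl1 0.29, 0.55 and 0.50 FPKM against 1.80, 3.53 and 0.63 FPKM. In these 4 genes DKO replicate 2 was highest, replicate 1 next and replicate 3 the closest to the controls, and the groups did not overlap. Of the 50-base words in Oas1a transcripts, 57.6% also occurred in Oas1g or Oas1b, so its values are uncertain. Related genes outside the set did not all follow that order. Oas1c measured 1.06, 0.86 and 1.28 FPKM in control and 1.76, 2.16 and 2.22 FPKM in DKO, with replicate 3 highest. Oas1b and Oas1g had overlapping groups, with DKO replicate 3 at 2.87 and 1.01 FPKM against highest controls of 3.01 and 1.48 FPKM.

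The other effectors had overlapping groups, except Mx2, at 0.93, 0.90 and 0.55 FPKM in control and 1.22, 2.52 and 0.97 FPKM in DKO. Ifit1, which binds RNA with a foreign cap, measured 1.30, 2.01 and 1.82 FPKM in control and 2.81, 5.87 and 2.01 FPKM in DKO, and its DKO replicate 3 equalled the highest control (0.67, SE 0.29, limma adjusted p = 0.136). Isg20, an exonuclease, measured 4.53, 5.93 and 4.59 FPKM in control and 5.22, 9.0 and 4.37 FPKM in DKO, and only replicate 2 was above the controls (0.21, SE 0.23, adjusted p = 0.567). Cmpk2, a mitochondrial nucleotide kinase encoded next to Rsad2, measured 0.87, 1.26 and 0.90 FPKM in control and 1.63, 2.59 and 0.98 FPKM in DKO (0.41, SE 0.22, adjusted p = 0.235). Bst2 (tetherin), which holds budding virus at the cell surface, measured 15.1, 25.2 and 15.8 FPKM in control and 29.5, 73.5 and 21.5 FPKM in DKO. Ifit2, Ifit3 and Rsad2 reached at most 9.31 FPKM in any P36 library, and 51.2% of the 50-base words of Ifit3 occurred in Ifit3b.

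The 2 genes of the ISG15 system had the widest gaps between replicate 2 and the next library. Isg15, the ubiquitin-like modifier, measured 19.5, 23.8 and 20.1 FPKM in control and 27.0, 111 and 18.9 FPKM in DKO. Replicate 2 was 4.09 times the next highest library for Isg15, and 3.82 times for Usp18, while replicate 3 of Isg15 was below every control (log2 difference 0.84, SE 0.55, limma adjusted p = 0.327). Usp18, the protease that removes Isg15 from proteins and dampens signalling at the type I interferon receptor, measured 3.04, 3.59 and 3.61 FPKM in control and 3.71, 14.2 and 2.98 FPKM in DKO (0.58, SE 0.44, adjusted p = 0.413). Without replicate 2 the log2 differences were 0.10 for Isg15 and −0.02 for Usp18.

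Among the GTPases that act on membranes around microbes, Gbp7 measured 0.77, 1.19 and 1.00 FPKM in control and 1.80, 2.64 and 1.82 FPKM in DKO (0.63, SE 0.16, limma adjusted p = 0.0227). Gbp3 measured 1.32, 1.81 and 1.23 FPKM in control and 2.68, 3.14 and 2.02 FPKM in DKO (0.55, SE 0.16, adjusted p = 0.0417). For both genes replicate 2 stood less far above the other DKO libraries than for most members, and the groups did not overlap. The call of Gbp7 was lost without control replicate 1 (adjusted p = 0.0833), DKO replicate 2 (0.0830) or DKO replicate 3 (0.0517). That of Gbp3 was lost without control replicate 1 (0.123), control replicate 3 (0.103), DKO replicate 1 (0.0939) or DKO replicate 2 (0.144), and also in the joint fit (0.111), with median-ratio scaling (0.0697), with keratin and cornified envelope genes kept out of the totals (0.0503) and with no filter (0.0598). Gbp2, Igtp and Irgm1 were above the controls in every DKO library, with adjusted p of 0.0667, 0.107 and 0.0619.

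Of the remaining induced genes, Parp14, a mono-ADP-ribosyltransferase, measured 1.57, 2.04 and 1.75 FPKM in control and 3.40, 5.83 and 3.44 FPKM in DKO. Replicates 1 and 3 were nearly equal and both well above the controls (log2 difference 0.88, SE 0.19, limma adjusted p = 0.0125; 0.67 and 0.0251 without replicate 2). Rtp4, named as a chaperone of taste and odorant receptors, measured 3.15, 3.60 and 3.77 FPKM in control and 8.13, 16.2 and 5.22 FPKM in DKO (1.14, SE 0.32, adjusted p = 0.0364). Its groups did not overlap, but its adjusted p was 0.102, 0.0812 and 0.0667 without control replicates 1, 2 and 3, and 0.0702 without DKO replicate 1, and 0.0581 with median-ratio scaling. Xaf1 and Ifi44 had overlapping groups, at 8.24, 8.96 and 15.6 FPKM against 9.79, 38.6 and 12.3 FPKM for Xaf1, and at 0.65, 1.85 and 0.60 FPKM against 0.75, 6.23 and 0.53 FPKM for Ifi44.

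**Figure D3:**
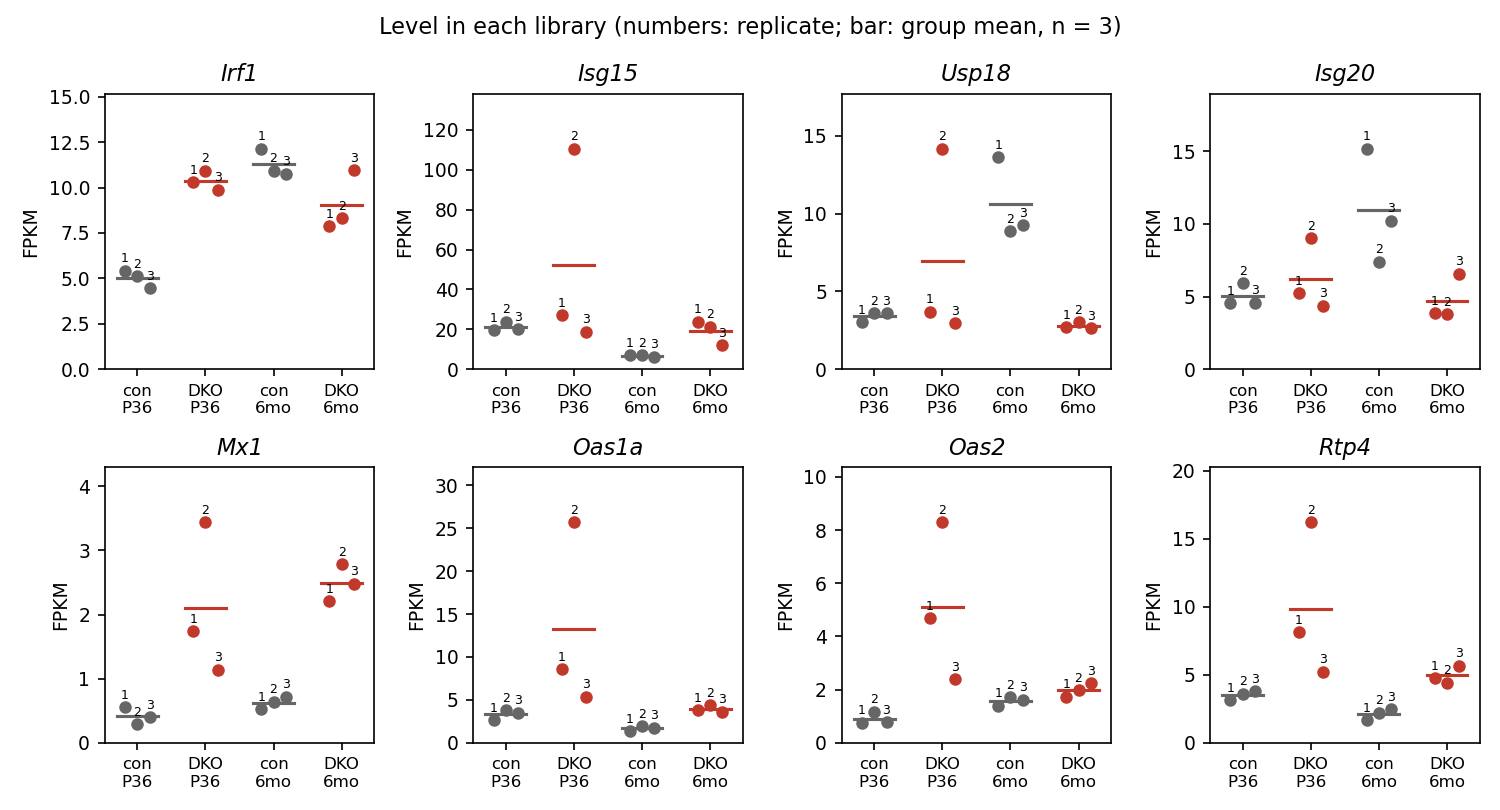
FPKM (y axis, from 0) of 8 members in each library of the 4 groups (x axis). Points are libraries numbered by replicate, and bars are group means (n = 3). The 3 P36 DKO libraries of Irf1 lie at 9.88 to 10.9 FPKM, while for Isg15 DKO replicate 2 stands apart at 111 FPKM.

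At 6 months no single library stood out for the whole set, and the members moved apart from each other. The mean FPKM was higher in DKO for 22 of 33 members, against 53.3% of the 12594 genes tested, and the ratio of means had a median of 1.13, from 0.264 for Usp18 to 3.98 for Mx1. The groups did not overlap with DKO higher for 7 members (Isg15, Ifit1, Mx1, Oas1a, Oas2, Oas3 and Rtp4; 31.8% of genes tested) and with DKO lower for 3 (Isg20, Usp18 and Cmpk2; 24% of genes). The fit tested 27 members (not Ifit2, Mx2, Oasl1, Rsad2, Ifi44 and Cmpk2), and Mx1 passed the filter only through DKO. It called 6 higher, where 23.2% of all genes were called higher, and 2 lower, where 18.2% were. The count called higher is close to the background share. The median log2 difference of the 27 was 0.16, against 0.045 over all genes tested, and −0.02 against −0.13 when totals were computed without keratin and cornified envelope genes. Leaving out DKO replicate 2 at 6 months gave 3 of 26 called higher, where 2086 of 12433 genes were. Leaving out control replicate 3, DKO replicate 1 or DKO replicate 2 each gave 1 of 26 called lower. In those fits 1462 of 12297, 1706 of 12430 and 1596 of 12433 genes were called lower. Without control replicate 1 Irf7 was also called higher, and without DKO replicate 3 Irf1 was also called lower. Mx1 fell under the filter when any DKO library was left out.

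The ISG15 system split at this age. Isg15 measured 6.98, 7.09 and 6.27 FPKM in control and 23.9, 21.4 and 12.2 FPKM in DKO, so that even the lowest DKO library was well above the controls (log2 difference 1.32, SE 0.23, limma adjusted p = 0.00441). Usp18 went the other way, at 13.6, 8.89 and 9.25 FPKM in control and 2.71, 3.03 and 2.66 FPKM in DKO, and fell by 1.59 on the log2 scale (SE 0.17, adjusted p = 0.000785). Neither pair of groups overlapped, and both calls held under every alternative run.

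Mx1 was the member with the highest ratio at 6 months. It measured 0.52, 0.64 and 0.72 FPKM in control and 2.21, 2.79 and 2.48 FPKM in DKO (log2 difference 1.1, SE 0.14, limma adjusted p = 0.00138). Oas1a rose from 1.35, 1.92 and 1.77 FPKM to 3.82, 4.42 and 3.62 FPKM (0.89, SE 0.14, adjusted p = 0.00303, and 0.078 in a joint fit of all 12 libraries), and Rtp4 from 1.65, 2.21 and 2.48 FPKM to 4.74, 4.42 and 5.67 FPKM (0.94, SE 0.15, adjusted p = 0.00338). For these 3 genes all DKO libraries were above all controls and close to each other. Rtp4 was called higher at both ages, and so was Mx1, which passed the filter only through DKO each time (adjusted p = 0.0324 at P36 and 0.00171 at 6 months with no filter).

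Ifit1 and Oas3 were called with smaller differences. Ifit1 measured 1.24, 0.95 and 1.26 FPKM in control and 1.79, 2.40 and 2.09 FPKM in DKO (0.52, SE 0.14, limma adjusted p = 0.0250), a call lost without control replicate 2 (0.0951), control replicate 3 (0.0590) or DKO replicate 2 (0.0862), with keratin and cornified envelope genes kept out of the totals (0.0550) and in the joint fit (0.101). Oas3 measured 1.18, 1.03 and 0.92 FPKM in control and 1.72, 1.68 and 1.62 FPKM in DKO (0.39, SE 0.13, adjusted p = 0.0474). Its 3 DKO libraries were nearly equal, but leaving out any of the 6 libraries gave an adjusted p between 0.0559 and 0.156. Oas2 measured 1.40, 1.71 and 1.62 FPKM in control and 1.73, 1.98 and 2.24 FPKM in DKO and was not called (0.21, SE 0.14, adjusted p = 0.249).

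Isg20 was the other member called lower at 6 months. It measured 15.2, 7.41 and 10.2 FPKM in control and 3.84, 3.77 and 6.57 FPKM in DKO (log2 difference −1.04, SE 0.28, limma adjusted p = 0.0216), and every DKO library was below every control. The call was lost without control replicate 3 (adjusted p = 0.0532), DKO replicate 1 (0.0715) or DKO replicate 2 (0.0824). Cmpk2 had 0.84, 1.53 and 1.75 FPKM in control and 0.35, 0.45 and 0.76 FPKM in DKO. It was under the filter, and with no filter its log2 difference was −0.63 (SE 0.18, adjusted p = 0.0412).

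Irf1, Parp14, the sensors and the GTPases were not called at 6 months. Irf1 measured 12.1, 10.9 and 10.8 FPKM in control and 7.86, 8.33 and 11.0 FPKM in DKO, where replicate 3 lay among the controls (−0.30, SE 0.14, limma adjusted p = 0.122). Parp14 measured 3.81, 3.69 and 4.37 FPKM in control and 3.44, 4.31 and 5.42 FPKM in DKO. Zbp1 measured 1.75, 2.52 and 2.45 FPKM in control and 1.40, 3.10 and 4.73 FPKM in DKO. In both genes DKO replicate 1 was the lowest of the 6 libraries and replicate 3 the highest. Replicate 1 labelled DKO was lowest for 11 of 33 members at this age and replicate 3 highest for 13, against 12.5% and 19.6% of genes tested. Gbp3 followed that order, at 2.16, 1.88 and 2.78 FPKM in control and 1.28, 1.90 and 3.52 FPKM in DKO, and so did Gbp7, at 2.18, 2.13 and 2.64 FPKM against 1.45, 2.0 and 3.0 FPKM. Dhx58 had DKO replicate 1 lowest, with 1.09, 1.01 and 1.15 FPKM in control and 0.96, 1.66 and 1.65 FPKM in DKO. Control replicates also differed for some members, as for Oasl2 (5.22, 2.19 and 1.80 FPKM), Irf7 (16.2, 6.64 and 7.29 FPKM) and Xaf1 (2.61, 10.8 and 20.4 FPKM).

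The difference of the genotype effect between the ages was tested directly over all 12 libraries. Of 31 members tested, 7 had a lower DKO minus control difference at 6 months than at P36 and 0 a higher one, where 21.1% of all genes were called lower and 13.8% higher. The count called lower is close to the background share. The median over members was −0.62, against −0.08 over all genes. Irf1 changed most clearly, by −1.22 (SE 0.17, limma adjusted p = 0.000507). Its controls averaged 5.01 ± 0.503 FPKM at P36 and 11.3 ± 0.749 at 6 months, and its DKO libraries 10.4 ± 0.524 and 9.05 ± 1.67 FPKM (SD, n = 3). Each age has a table of its own, so age and table cannot be told apart in these levels. The levels themselves were not tested across ages. Usp18 differed by −2.16 (SE 0.54, adjusted p = 0.0105) and Oas2 by −1.36 (SE 0.39, adjusted p = 0.0187), and the calls of these 3 genes held under every alternative run.

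The other 4 calls were each lost when single libraries were left out. Cmpk2 differed by −1.04 (SE 0.31, limma adjusted p = 0.0233), Isg20 by −1.26 (SE 0.39, adjusted p = 0.0288), Parp14 by −0.77 (SE 0.26, adjusted p = 0.0381) and Gbp7 by −0.73 (SE 0.26, adjusted p = 0.0444). Left out one at a time, control replicates 1 and 3 at P36 and DKO replicates 1 and 2 at 6 months each ended all 4 calls, and so did DKO replicate 2 at P36. Without DKO replicate 2 at P36, the values were −0.82 for Cmpk2 (adjusted p = 0.0508), −0.99 for Isg20 (0.0651), −0.56 for Parp14 (0.0722) and −0.61 for Gbp7 (0.104). In that fit Isg15 was called with a higher difference at 6 months (1.22, SE 0.33, adjusted p = 0.0195), against 0.48 (SE 0.69, adjusted p = 0.616) with all libraries. The count of lower calls was 3 without each of those 5 libraries and 4 without any 1 of the 6-month controls. With each of the 12 libraries left out in turn, 2222 to 3168 of all genes were called lower. Leaving out 1 library also added lower calls: Dhx58 and Oasl2 without P36 DKO replicate 3, Ifih1 without P36 DKO replicate 1, and Gbp3 and Zbp1 without DKO replicate 3 at 6 months. For Mx1 the difference between ages was 0.03 (SE 0.30, adjusted p = 0.951).

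**Figure D4:**
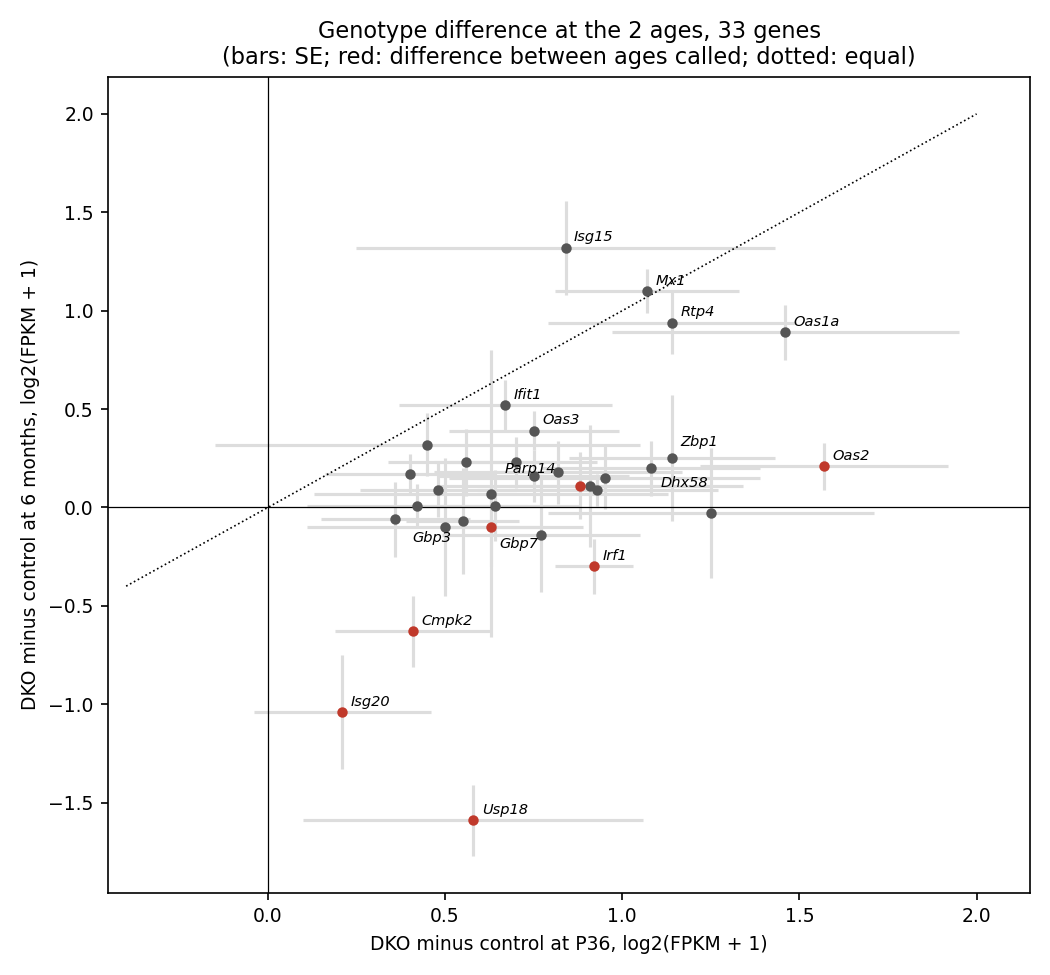
Log2 difference of DKO minus control, on the log2(FPKM + 1) scale with no filter on low values, at P36 (x axis) and at 6 months (y axis) for the 33 members, with bars for the SE and a dotted line where both would be equal. Red marks the 7 members whose difference between ages was called in the filtered fit, all below the line, with Usp18 at −1.59 at 6 months.

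The ligands of the pathway were barely seen. Of 11 interferon genes listed, 3 had values in both tables (Ifnk, Ifnz and Ifng). None of these reached 1 FPKM in any library, and none of the 11 passed the filter. With no filter 7 of the 11 were tested at P36, and 0 were called higher and 0 lower. Ifng, the type II interferon made by T cells and NK cells, was listed at 0 in 5 of 6 libraries at P36. At 6 months it was listed at 0.16, 0 and 0 FPKM in control and at 0.48, 0.59 and 0.27 FPKM in DKO, with all DKO values above the controls and below 1 FPKM. With no filter the limma adjusted p of Ifng was 0.659 at P36 and 0.0183 at 6 months, on these low values.

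Receptors and kinases stood at like levels in the 3 DKO libraries at P36. Of 9 receptors and Janus kinases tested, 6 were called higher at P36 and 0 lower, with a list median of 0.57 (background 18% higher and a median of 0.09). Jak1 measured 14.3, 13.0 and 12.02 FPKM in control and 30.1, 29.2 and 34.8 FPKM in DKO (1.2, limma adjusted p = 0.000486). Ifnar2, a chain of the type I receptor, measured 6.84, 5.98 and 7.63 FPKM in control and 14.0, 15.8 and 13.0 FPKM in DKO (0.97, adjusted p = 0.00138). Here replicate 2 did not stand apart, and the mean log2(FPKM + 1) over the 9 genes was 4.08, 4.09 and 4.08 in the DKO libraries, against 3.40 to 3.55 in control. Ifngr1 (0.92, adjusted p = 0.00216) and Jak2 (0.57, adjusted p = 0.0172) rose too. Without replicate 2, these 4 of the 9 genes were called (10.5% of all genes). At 6 months 1 of 9 was called higher (23.2% of all genes), Ifngr2, a chain of the interferon-gamma receptor, from 24.7, 28.7 and 34.6 FPKM to 52.2, 64.4 and 59.8 FPKM (0.99, adjusted p = 0.00220), and 0 lower. In the difference between ages, 1 of 9 was called higher and 5 lower (13.8% and 21.1% of all genes).

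Of the nucleic acid sensing genes outside the set, 4 of 11 were called higher at P36 and 0 lower (18% and 5.32% of all genes). They were Myd88, the adaptor of most Toll-like receptors (0.70, limma adjusted p = 0.00337), Trim25 (0.82, adjusted p = 0.00860), the kinase gene Ikbke (0.51, adjusted p = 0.0315) and Tlr3 (0.53, adjusted p = 0.0389). Without DKO replicate 2, 2 of 11 were called (10.5% of all genes), and Ikbke (adjusted p = 0.105) and Tlr3 (0.125) were not. At 6 months 3 were called higher and 2 lower, shares close to those over all genes (23.2% and 18.2%). Aim2, a sensor of cytosolic DNA, rose from 3.27, 3.78 and 3.48 FPKM to 11.3, 8.14 and 8.45 FPKM (1.18, adjusted p = 0.00127), and the kinase gene Tbk1 rose too (0.45, adjusted p = 0.00745). Ikbke fell from 19.1, 15.6 and 16.1 FPKM to 9.88, 10.4 and 10.8 FPKM (−0.65, adjusted p = 0.00386), and Ticam1, the adaptor of Tlr3, also fell (−0.52, adjusted p = 0.0238).

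Signal factors and regulators outside the set were counted in the same way. At P36, 8 of 11 tested were called higher and 0 lower (18% and 5.32% of all genes). Irf8 and Ciita, both called, passed the filter only through DKO, so that count is a description. With no filter 5 of 12 were called higher (13.8% of all genes). Without DKO replicate 2, where Irf8 and Ciita fell under the filter, 4 of 9 were called higher (10.5% of all genes). Socs3, a feedback inhibitor of cytokine receptors, measured 9.94, 8.94 and 8.58 FPKM in control and 25.8, 24.7 and 27.6 FPKM in DKO at P36 (1.41, limma adjusted p = 0.000226). At 6 months it measured 64.9, 27.1 and 32.2 FPKM in control and 18, 14.9 and 14.4 FPKM in DKO (−1.24, adjusted p = 0.0150), so that the groups were apart in opposite directions at the 2 ages. Stat3 (1.29, adjusted p = 0.000724) and Nlrc5, the activator of MHC class I genes (1.09, adjusted p = 0.00138), rose at P36. Irf8 measured 0.76, 0.86 and 0.76 FPKM in control and 3.22, 2.55 and 2.0 FPKM in DKO at P36, and passed the filter only through DKO (0.99, adjusted p = 0.00330, and 0.00605 with no filter). Irf2, an antagonist of Irf1 at many promoters, fell at 6 months (−0.78, adjusted p = 0.00880), and Ptpn2 rose (0.39, adjusted p = 0.0447, and 0.0563 with no filter). In all, 2 of 11 were called higher and 2 lower at that age, against 23.2% and 18.2% of all genes.

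Among 58 other interferon-stimulated genes, 29 of 48 tested were called higher at P36 and 0 lower (18% and 5.32% of all genes), with a median of 0.74, and 18 of 43 without DKO replicate 2 (10.5% of all genes). Cxcl10, Epsti1 and Gbp9, each called, passed the filter only through DKO, so the count of 29 is a description. With no filter 23 of 58 were called higher (13.8% of all genes). The DNA-binding genes Ifi204 (1.89, limma adjusted p = 0.000616) and Ifi205 (1.95, adjusted p = 0.00117), the nucleotide hydrolase gene Samhd1 (1.39, adjusted p = 0.000733) and Ifi27 (0.88, adjusted p = 0.000774) had the smallest adjusted p. Samhd1 measured 6.81, 7.62 and 6.45 FPKM in control and 18.7, 24.5 and 17.1 FPKM in DKO, all DKO libraries far above control. At 6 months 11 of 49 were called higher, a share close to that over all genes (23.2%), and 2 lower, below that over all genes (18.2%). Oas1g measured 0.43, 0.64 and 0.40 FPKM in control and 2.38, 2.63 and 2.43 FPKM in DKO, and passed the filter only through DKO (1.23, adjusted p = 0.000922, and 0.00109 with no filter). The count of 11, which includes Oas1g, is a description too. Cxcl9, a chemokine induced by interferon-gamma, rose from 1.25, 1.07 and 0.87 FPKM to 3.04, 3.99 and 3.60 FPKM (1.14, adjusted p = 0.00144). Ifi35 (0.72, adjusted p = 0.00294) and Apol9b (0.93, adjusted p = 0.00478) rose as well. In the difference between ages, 1 of 50 was called higher and 15 lower (13.8% and 21.1% of all genes).

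MHC class I and immunoproteasome genes, which interferon-gamma in particular induces, were called higher for 13 of 15 at P36 and lower for 0 (18% and 5.32% of all genes), and higher for 10 of 15 without DKO replicate 2 (10.5% of all genes). B2m, the light chain of MHC class I, measured 236, 213 and 278 FPKM in control and 541, 879 and 681 FPKM in DKO (1.51, limma adjusted p = 0.00140). H2-D1 (1.06, adjusted p = 0.00210), Psmb9 (1.41, adjusted p = 0.00332) and Psmb8 (1.26, adjusted p = 0.00382) rose with it. At 6 months 3 were called higher and 4 lower (23.2% and 18.2% of all genes). Psme2, an activator subunit of the proteasome, rose from 66.2, 75.2 and 76.6 FPKM to 136, 186 and 135 FPKM (1.04, adjusted p = 0.00193) and B2m also rose (0.65, adjusted p = 0.00514, and 0.0629 with no filter). Tap1, a chain of the peptide transporter, fell from 49.8, 67.7 and 57.4 FPKM to 37.8, 30.2 and 34.8 FPKM (−0.75, adjusted p = 0.00576), and so did H2-Q4 (−0.53, adjusted p = 0.00529). In the difference between ages 10 of 15 were called lower and 0 higher (21.1% and 13.8% of all genes).

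**Figure D5:**
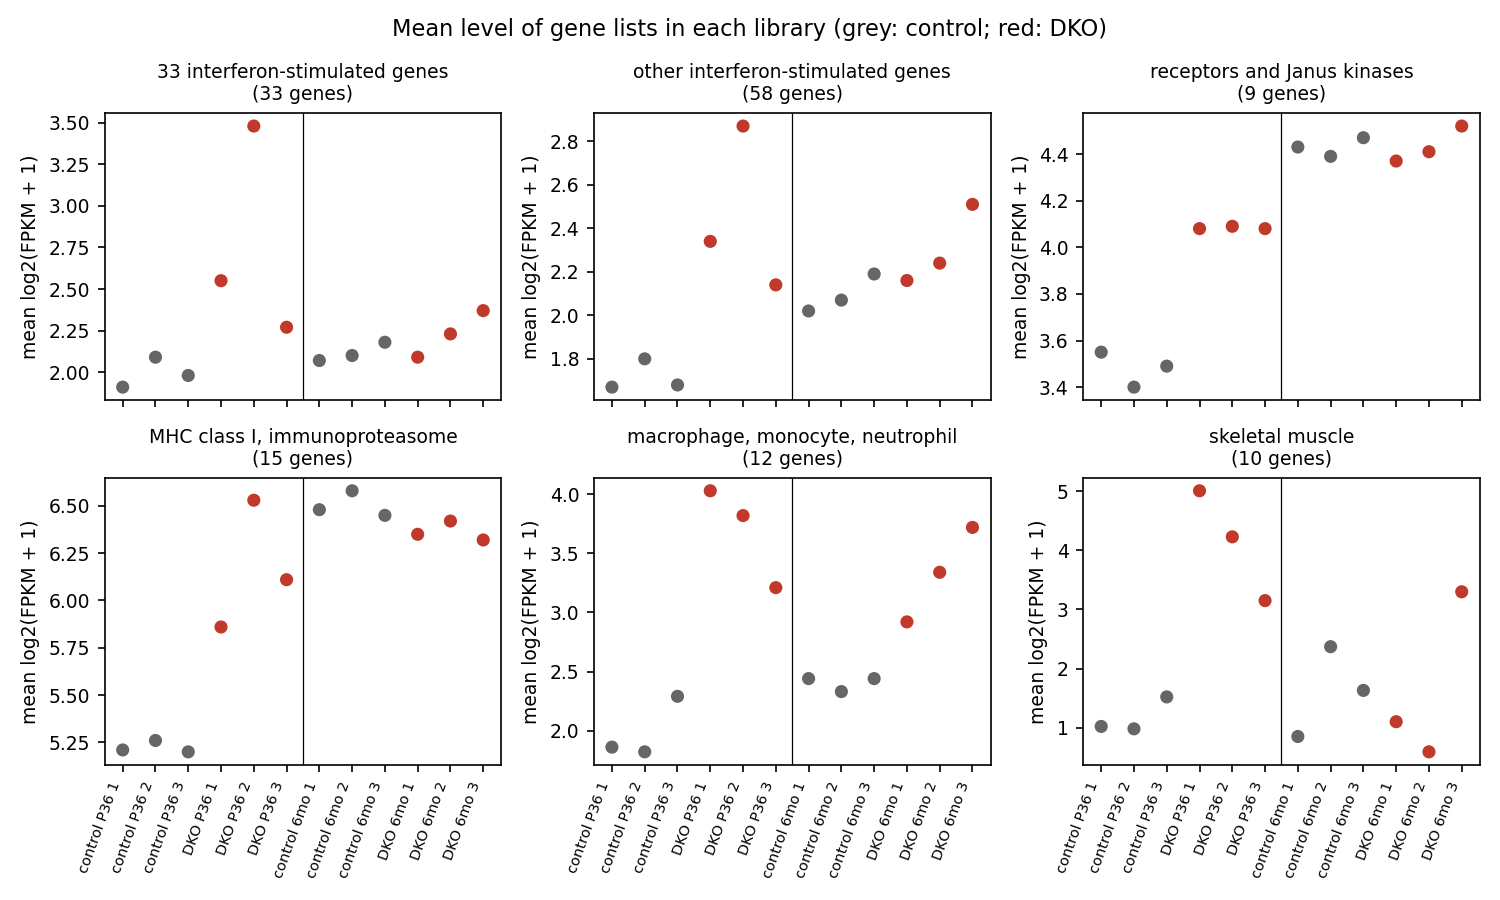
Mean log2(FPKM + 1) over each gene list, 1 point per library, for the members, 3 lists of pathway genes and 2 lists of markers of other cells (y axis), by library (x axis), with control in grey and DKO in red. For the members, P36 DKO replicate 2 stands at 3.48 and the other 2 DKO libraries at 2.27 and 2.55, while for receptors and Janus kinases the 3 libraries lie at 4.08 to 4.09.

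Markers of other cells also differed between the P36 groups. The mean log2(FPKM + 1) over 12 macrophage, monocyte and neutrophil markers was 1.86, 1.82 and 2.29 in control and 4.03, 3.82 and 3.21 in DKO, and 10 of 12 were called higher, where 18% of all genes were. Over 10 skeletal muscle markers it was 1.02, 0.98 and 1.52 in control and 5.01, 4.23 and 3.15 in DKO, and 9 of 9 tested were called. Some markers passed the filter only through DKO, Myh1, Myh4 and Actn3 of the muscle list among them. With no filter 10 of 10 muscle and 10 of 12 macrophage, monocyte and neutrophil markers were called higher (13.8% of all genes). Over 11 T cell and NK cell markers it was 0.50 to 0.56 in control and 0.94 to 1.11 in DKO (4 of 5 called higher). Over 8 Langerhans cell and dendritic cell markers it was 2.95 to 3.18 and 3.59 to 4.05 (4 of 6 called higher). Cd2 and Ptprc of the T cell list and Itgax of the dendritic cell list passed the filter only through DKO, so these counts are a description. With no filter 7 of 11 and 4 of 8 were called higher (13.8% of all genes). For fibroblast, endothelial and keratinocyte markers 2 of 6, 3 of 5 and 3 of 8 were called higher. In the macrophage and muscle lists replicate 1 was the highest DKO library. Replicate 2, the highest for the members, was also the highest DKO library for T cell and NK cell markers (1.01, 1.11 and 0.94). The same held for Langerhans cell and dendritic cell markers (3.59, 4.05 and 3.96) and endothelial markers (2.80, 3.33 and 3.26). In the Langerhans cell and dendritic cell list, H2-Eb1 measured 23.01, 25.15 and 1.38 FPKM in control and 3.74, 37.3 and 52.63 FPKM in DKO. Its low value in DKO replicate 1 lowered the list mean of that library. Cd74, H2-Aa, H2-Ab1 and Itgax of that list were called, while Cd207 was not (limma adjusted p = 0.147). Flt3 and Xcr1 were under the filter and not called without it. Plasmacytoid dendritic cell markers, of cells that make much type I interferon, lay between 0.24 and 0.38 in control and 0.25 and 0.28 in DKO, and none was tested at P36. The part of these cells in the results on the members was not tested.

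At 6 months the mean over the members was 2.07 to 2.18 in control and 2.09, 2.23 and 2.37 in DKO. The macrophage, monocyte and neutrophil list stood at 2.33 to 2.44 in control and 2.92, 3.34 and 3.72 in DKO. Of its 9 markers tested, 3 were called higher (S100a8, S100a9 and Cxcr2) and 1 lower (Csf1r), against 23.2% and 18.2% of all genes. Not called were Cd68 (0.18), Adgre1 (−0.03), Itgam (0.12), Mrc1 (0.92) and Lyz2 (0.77). For Cd68, Adgre1, Csf1r and Itgam, though not for Mrc1 and Lyz2, DKO replicate 1 was below every control. T cell and NK cell markers stood at 1.44 to 1.66 in control and 1.82 to 1.89 in DKO, with 2 of 6 called higher, Cd8a and Ptprc. Cd8a passed the filter only through DKO (limma adjusted p = 0.00756 with no filter), so that count is a description. With no filter Ptprc was not called (limma adjusted p = 0.0597). Langerhans cell and dendritic cell markers stood at 4.89 to 5.19 in control and 4.40 to 4.83 in DKO, with 2 of 6 called lower. The muscle list was highest in DKO replicate 3, at 3.30 against 0.59 to 2.37 in the other 5 libraries, with none of its 6 tested markers called by limma. None of the markers was listed at 0 in all 12 libraries, while 4 T cell and NK cell, 2 Langerhans cell and dendritic cell and 2 plasmacytoid dendritic cell markers stayed below 1 FPKM in all. Their part in the results was not tested.

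Within groups the members varied together, and this rested on the P36 DKO libraries. Over deviations of the 12 libraries from their group means, the median Pearson r between pairs of members was 0.72, and 79.0% of pairs exceeded 0.5. Each member against the mean of the others had a median r of 0.84, with Irf1 the lowest at 0.34, while the other genes had a median of 0.01. Over the 9 libraries outside that group, the median between pairs was 0.19 and 28.6% of pairs exceeded 0.5. Each member against the mean of the others then had a median r of 0.51, with Isg15 the lowest at −0.66, and the other genes a median of 0.17. These values describe libraries that share their sums and preparation, and carry no p.

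Among the 110 tested genes that were at least 1.5 times higher in P36 DKO replicate 2 than in any other P36 library, 25 were members and 23 belonged to the list of other interferon-stimulated genes. None belonged to the receptors, the sensing genes, the keratinocyte markers or the muscle markers, 2 were T cell and NK cell markers and 1 a macrophage marker. Apol9b exceeded the next highest P36 library by 2.13 on the log2 scale and Apol9a by 1.67. Of 57 genes in no list, Sprr2a2, a cornified envelope precursor gene, exceeded it by 2.52, Sprr2a3 by 1.79, Sprr2a1 by 1.49 and Chil1 by 1.42. The antiviral membrane protein gene Ifitm3 came lower in that order, at 0.96. These genes were named after their values were seen.

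The authors' deposited table (its test not given in the sources used here) called all 33 members higher at P36 at a q-value below 0.05, where it called 47.8% of genes higher and 22.1% lower. For Usp18 its log2 ratio was 1.02 and its q 9.2e-27, although DKO replicates 1 and 3 lay just above and just below the controls. At 6 months that table called 17 members higher and 6 lower, where it called 42% of genes higher and 38.6% lower. Counting across transcripts can blur near-identical genes. For 28 members under 10% of the 50-base words occurred in another gene, and besides Oas1a and Ifit3 the shares were 12.7% for Gbp7, 11.8% for Igtp and 11.6% for Rtp4. In RefSeq, 9 members overlap another gene model, among them Rtp4 with Masp1, Stat2 with Apof and Ifit1 with Ifit1bl1, and the use of strand in the counting was not given in the sources used here.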

How the data were processed

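Gene expression was measured in 12 libraries, 3 per genotype and age. The authors deposited 1 table per age with FPKM values (2 decimals) and, per the file headers, with each gene's log2 ratio, p-value and q-value from their own test. The tools named by the submitters' processing notes are HISAT2 2.1.0 and RSEM 1.2.8; the builds named there, GRCh38 and hg38, are human although the samples are mouse, and the age of a table comes from its name alone. Per the labels' protocols, RNase H served to deplete ribosomal RNA and a BGISEQ-500 gave 50-base single-end reads. FPKM are not counts, so read depth is unknown and no counting interval is given; of the nonzero values 8.31% (P36) and 8.06% (6 months) lie below 0.1 FPKM and hold 1 significant digit.

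Entrez identifiers were matched to RefSeq symbols (GRCm38.p6), 19343 of 19392 at P36 and 17712 of 17750 at 6 months. In R 4.3.3, limma 3.58.1 (limma-trend) was fitted to log2(FPKM + 1), for genes that reached 1 FPKM in 3 or more of the fitted libraries, separately at each age and on all 12 libraries for the difference between ages (6 months minus P36), with Benjamini-Hochberg adjustment over all genes tested. This scale understates the change of low genes. All tests were two-sided and called at an adjusted p below 0.05; the fits were tested on simulated data. The members and lists were chosen with earlier results of these data known. Named in full are members called in any fit, at most 24, and the member with the smallest adjusted p of each role, and of each pathway list up to 4 called genes per age, or 2 where none was called. Whether replicates are separate animals is not in the labels, and p-values then reflect only the spread among these samples, which may be technical. Alternatives were a pseudocount of 0.1, no filter, a filter at 5 FPKM, median-ratio scaling, totals without keratin and cornified envelope genes, a replicate block, a joint fit of all 12 libraries and leaving out each library. Motifs were searched in RefSeq promoter windows, and 50-base words were compared between GENCODE M21 transcripts. The values of 1 gene are not reported here.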

Additional observations from a re-analysis of the deposited data

Results flagged for a closer look

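The genotype difference (DKO minus control, log2 scale) of 7 members differed between P36 and 6 months by a direct test in limma, each lower at 6 months: Irf1 by −1.22 (adjusted p = 0.000507), Usp18 by −2.16 (adjusted p = 0.0105), Oas2 by −1.36 (adjusted p = 0.0187), Cmpk2 by −1.04 (adjusted p = 0.0233), Isg20 by −1.26 (adjusted p = 0.0288), Parp14 by −0.77 (adjusted p = 0.0381) and Gbp7 by −0.73 (adjusted p = 0.0444). Of these, Irf1, Oas2, Parp14 and Gbp7 were called higher in the libraries labelled DKO at P36 and in neither direction at 6 months. Usp18 and Isg20 were called lower at 6 months and in neither direction at P36. Cmpk2 was not called at P36 and was under the filter at 6 months, where with no filter it was called lower (−0.63, limma adjusted p = 0.0412). The calls of Cmpk2, Isg20, Parp14 and Gbp7 were lost without P36 DKO replicate 2, at adjusted p = 0.0508, 0.0651, 0.0722 and 0.104 in the limma fit. Across all genes, 21.1% had a called lower and 13.8% a called higher difference in this test, so that 7 of 31 members called lower is close to the share over all genes.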

How the results depend on the processing

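The counts here cover the 16 members called in 1 or more of the 3 fits and leave out the other 17. Of the values of these 16 under the alternatives, 155 stayed on the same side of the threshold at P36, 24 lost the call and 10 gained it. At 6 months the counts were 159, 20 and 2, and for the difference between ages 240, 34 and 5. Among 649 such values 19 changed sign, none of them called under either setting. With no filter the P36 calls of Rtp4, Dhx58 and Gbp3 were lost (adjusted p = 0.0698, 0.0589 and 0.0598). Under a filter at 5 FPKM, which tests fewer genes, 3 of 13 members were called higher at P36 (1536 of 9280 genes). At 6 months 1 of 13 was called higher (2643 of 9339 genes), and 3 of 18 had a lower difference between ages (2170 of 10224 genes). The joint fit called 3 of 31 members higher at 6 months (3336 of 13280 genes).

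Scaling moved the balance of calls over all genes. Median-ratio scaling called 1608 genes higher and 1111 lower at P36 (59.1% of calls higher, against 77.1% with 2275 and 674) and shifted the median of all genes from 0.09 to −0.03, while all 29 members tested stayed above 0. For the difference between ages it called 2658 higher and 2215 lower (54.5% against 39.5% with 1827 and 2804). Totals without keratin and cornified envelope genes called 1851 higher and 3393 lower at 6 months (35.3% against 56.0% with 2918 and 2289), moved the median of all genes to −0.13 and that of the members to −0.02, and called 1125 higher and 3706 lower (23.3%) for the difference.

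The replicate numbers did not pair the samples: the correlation of deviations of same-numbered libraries ran from −0.115 to 0.135 at P36 and from −0.063 to 0.183 at 6 months, and not every library correlated best with its own number. With the replicate number as a block, 15 of 29 members were called higher at P36 (15.5% of genes), against 9 without it. At 6 months 5 of 27 were called higher and 2 lower (2637 and 2225 of 12594 genes). In the difference 8 of 31 were called lower (2657 of 13280 genes).

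Leaving out 1 library at a time gave at P36 1295 to 1969 genes called higher and 367 to 691 lower, 4 to 13 members higher and 0 to 0 lower, and a member median of 0.431 to 0.94. At 6 months it gave 2086 to 2647 genes higher and 1462 to 2495 lower, 3 to 6 members higher and 1 to 3 lower, and a median of 0.12 to 0.225. For the difference it gave 1342 to 1874 genes higher and 2222 to 3168 lower, 0 to 1 members higher and 3 to 9 lower, and a median of −0.793 to −0.291. The cause of these changes was not tested, and the number of libraries and unknown read depth limit what members below 1 FPKM can show.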
